A study of Mus musculus with 6 samples.

Results

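Proteasome genes were examined in CD4+CD8+ double-positive (DP) thymocytes sorted by flow cytometry from the thymus of untreated mice. The control group was WT (Paxbp1fl/fl), and the cKO group was Paxbp1 cKO (Paxbp1fl/fl Lckcre), so that both groups carried the floxed Paxbp1 allele and the cKO mice also carried the Lck-cre transgene, which drives recombination in T-lineage cells from the early thymic stages onward. RNA-Seq was performed on 3 control and 3 cKO libraries from mice of both sexes aged 4 to 7 weeks. Members were all genes whose symbol starts with Psma, Psmb, Psmc, Psmd, Psme, Psmf or Psmg followed by a digit, without the immunoproteasome subunits Psmb8, Psmb9 and Psmb10. This gave 48 of 22322 genes, all of which had a count in at least 1 library. The loxP sites flank a single exon of Paxbp1, and the counts cover the whole gene with no separate value for that exon, so that they do not check the genotype. Paxbp1 had 40.1, 16.3 and 15.5 CPM (counts scaled to a common library size) in the control libraries and 38.8, 47.1 and 49.6 CPM in the cKO libraries. Control 1 thus lay within the cKO range. The paper reported the loss of Paxbp1 in sorted cKO thymocytes separately, by qPCR and western blot. No label ties a library to a mouse, and the p-values therefore measure the spread between these libraries, which may be technical. In sorted bulk samples, fewer cells of a type and less RNA per cell cannot be told apart.

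The proteasome degrades proteins that carry ubiquitin chains. Its core particle is a barrel of alpha rings around beta rings, and the beta subunits Psmb5, Psmb6 and Psmb7 hold the proteolytic sites. A regulatory particle sits at the ends of the barrel, with a base of ATPases that unfold substrates and a lid that removes ubiquitin. In lymphoid cells the catalytic subunits are partly exchanged for Psmb8, Psmb9 and Psmb10, and cortical thymic epithelium carries the special subunit Psmb11, whose products serve the positive selection of CD8 T cells. Each subunit has a fixed number of copies in the particle, and transcription of the subunit genes is known to be coordinated by Nfe2l1 (Nrf1).

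Libraries held 18963775 to 26252248 counts, and 1 count was worth 0.0381 to 0.0527 CPM. Of 15349 genes with a count, 11488 were tested with edgeR's quasi-likelihood test. The median log2 fold change of cKO over control across these genes was 0.00. The defining DP markers were present in every library, with a summed level of 10729 to 12616 CPM in control and 7801 to 9266 CPM in cKO. All 10 were lower in cKO, with 3 called (Cd3e, Cd8b1 and Rag1), beside 5.89% of all tested genes called lower. Macrophage markers summed to 453 to 490 CPM in control and 461 to 496 CPM in cKO, mostly from Ctsb, and without Ctsb to 45.1 to 94.99 CPM in control and 106 to 145 CPM in cKO, with no overlap. Of the 12 tested among 16, 10 were higher in cKO with a median of 1.51 on the log2 scale, while Mertk and Vsig4 were at 0. As many as 4 were called higher, beside 4.47% of all tested genes. Among the dendritic cell markers 3 of 8 were tested and 0 were called by edgeR, and of 6 B cell markers only Cd79b was tested and was lower in cKO. The part of these cell types in the values below was not tested. Control 1 stood apart from the other control libraries for the proteasome genes, as described below.

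Proteasome genes differed little between the genotypes. Of the 48 members 47 were tested, and Psma8, a testis form of an alpha subunit, was not (counts of 0, 0 and 29 in control and of 2, 11 and 0 in cKO). At an adjusted p below 0.05 (edgeR, Benjamini-Hochberg over all 11488 genes), 0 of 47 members were called, whereas 4.47% of all tested genes were called higher and 5.89% lower in cKO. DESeq2 called 4 members higher in cKO (8.51%), close to the 8.30% of all tested genes that it called higher, and limma-voom called 1, where it called 5.22% of all tested genes higher. At an unadjusted p below 0.05, 7 members were higher and 1 was lower in cKO, which is 17.0% of those tested. The shares among all tested genes were 13.3% higher and 14.6% lower. The libraries of both groups did not overlap for 13 members that were higher in cKO and for 3 that were lower, against 15.7% and 17.3% of all tested genes. Together these 16 members make 34.0% of the 47, beside 33.0% over all tested genes. The directions were less even than over all tested genes, since 13 of the 16 were higher in cKO.

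The differences were small in size. An absolute log2 fold change above 0.50 was seen in 3 of 47 members, or 6.38%, compared with 28.1% of all tested genes. The 95% interval of the log2 fold change lay within 1 of 0 for 44 members (93.6%) and within 0.50 for 33 (70.2%), where the shares over all tested genes were 65.7% and 21.9%. Members had a median standard error of 0.13 beside 0.19 over all tested genes, and a median level of 188 CPM beside 34.5 CPM, so that their differences were measured more narrowly than those of most genes. The median log2 fold change of the members was 0.11, and 35 of 47 were higher in cKO. Without control 1, the median was 0.03 and 26 of 48 were higher.

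**Figure D1:**
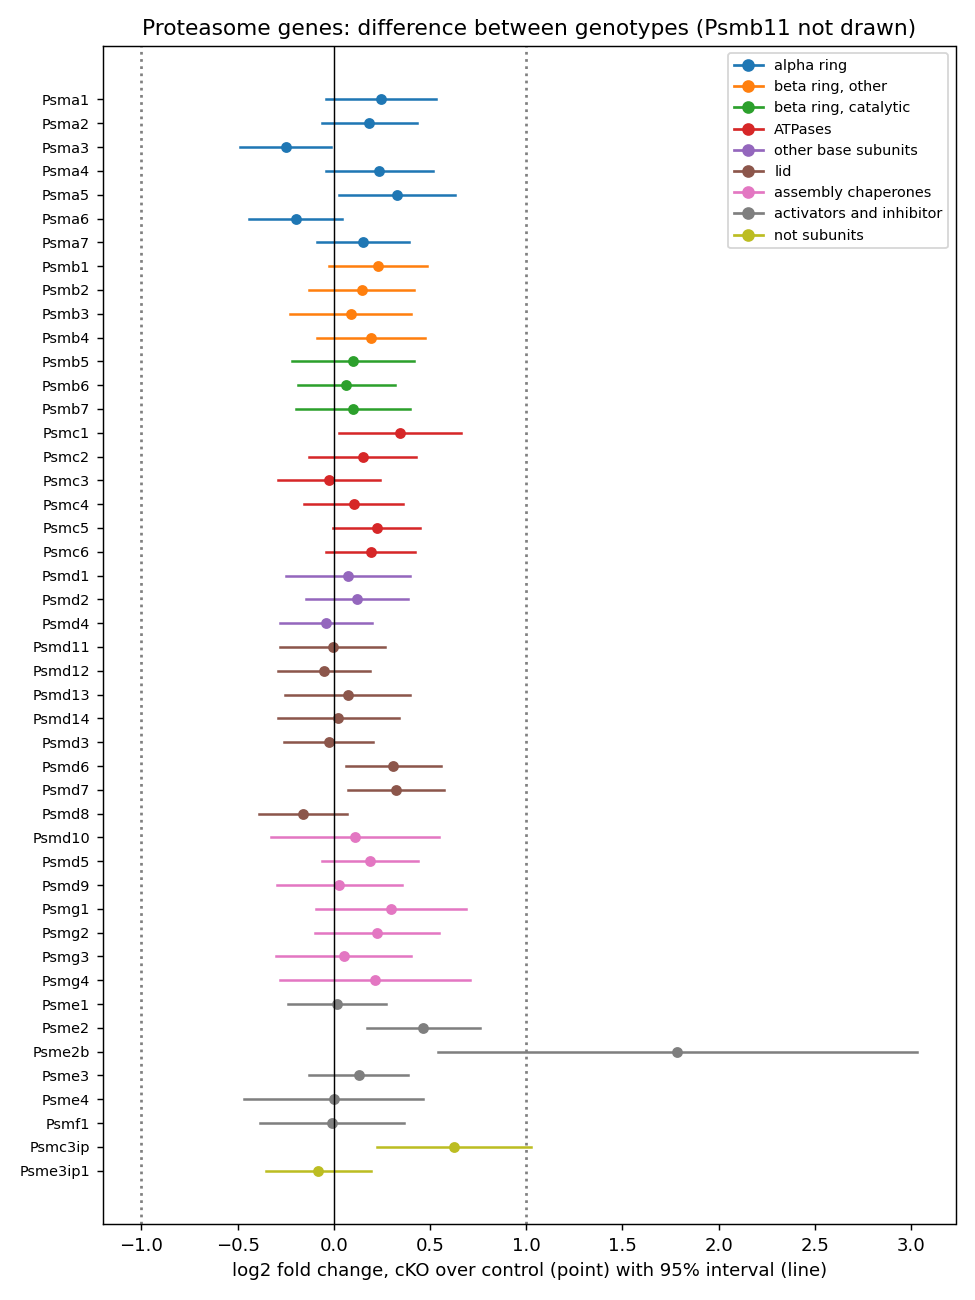
Log2 fold change of cKO over control (x axis) for 46 tested members (y axis), coloured by role, with points for the edgeR estimate from 3 libraries per group and lines for its 95% interval. Dotted lines mark a log2 fold change of -1 and 1; Psmb11 is not drawn because its interval runs from -2.36 to 1.15. The intervals of 7 members, among them Psme2, Psme2b and Psmc3ip, lie above 0, that of Psma3 lies below it, and the others cover it.

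Over the 31 constitutive subunits (7 alpha, 7 beta, 6 ATPases, 3 other base subunits and 8 lid subunits), the fold change of cKO over control ranged from 0.841 to 1.27. Their log2 fold changes had a median of 0.10, with 23 higher and 8 lower, and the smallest adjusted p was 0.0901. All 31 intervals lay between -0.49 and 0.66 on the log2 scale, which corresponds to folds of 0.714 to 1.58. Libraries of both groups did not overlap for 10 subunits that were higher in cKO (32.3%, beside 15.7% of all tested genes) and 3 that were lower (9.68%, beside 17.3%). The summed level of the 31 subunits was 6825, 7996 and 8193 CPM in the control libraries (7671 ± 740, SD, n = 3) and 7881, 8191 and 8452 CPM in the cKO libraries (8174 ± 286, SD, n = 3). Control 1 was the lowest library, and the other control libraries lay within the range of the cKO libraries.

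Control 1 held the lowest value for 25 of the 31 subunits (80.6%), whereas it was the lowest library for 22.4% of all tested genes. At the other end, cKO 3 held the highest value for 14 subunits (45.2%, beside 18.97% of all tested genes). The median deviation of the 31 subunits from the control mean, in log2 CPM, was -0.16, 0.05 and 0.12 in control 1, 2 and 3. It was 0.03, 0.11 and 0.21 in cKO 1, 2 and 3. Within each genotype the libraries thus differed by more than the medians of both genotypes did. Without control 1, 16 of 31 subunits were higher in cKO and their median log2 fold change was 0.03.

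**Figure D2:**
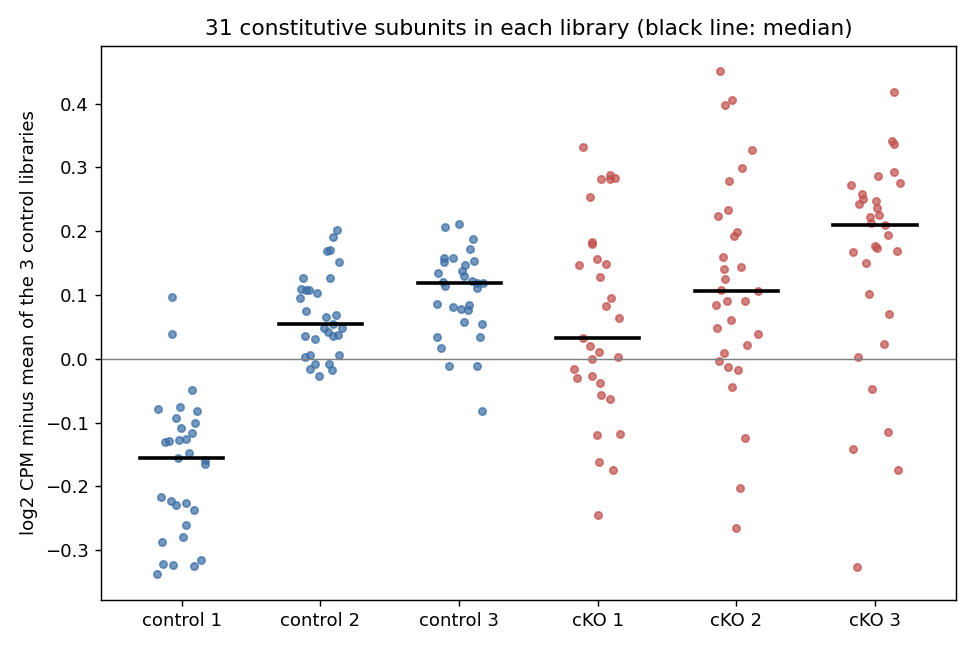
Deviation of each of the 31 constitutive subunits from the mean of the 3 control libraries (y axis, log2 CPM) in each library (x axis), with 1 point per gene and a black line at the median. The median is -0.16 in control 1, while it lies between 0.03 and 0.21 in the other 5 libraries.

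The alpha ring gates the entry to the barrel, and its genes held both the lowest and some of the highest differences among the subunits. Its 7 genes had a median log2 fold change of 0.19, and 5 were higher in cKO. Psma5 had 122, 168 and 162 CPM in control and 188, 197 and 183 CPM in cKO. Every cKO library was above every control library (log2 fold change 0.33, SE 0.14, adjusted p = 0.148, edgeR). Psma3, on chr12:70974621-70996347 (+), had 301, 329 and 326 CPM in control and 284, 265 and 254 CPM in cKO. All cKO libraries were lower than the control libraries (log2 fold change -0.25, SE 0.11, adjusted p = 0.157, edgeR), and it was the only member below an unadjusted p of 0.05 in that direction. Psma6 had 380, 417 and 451 CPM in control and 350, 361 and 376 CPM in cKO, again with no overlap. For Psma2, Psma4 and Psma7 the cKO libraries lay above the control libraries, and for Psma1, at 243 to 308 CPM in control and 299 to 357 CPM in cKO, the groups overlapped. Psma3, Psma4, Psma5 and Psma6 each overlap an annotated gene on the opposite strand and Psma2 overlaps one on the same strand, and no source used here states whether the counting used strand.

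All 7 beta ring genes were higher in cKO on average, with log2 fold changes of 0.06 to 0.23 and a median of 0.10. Psmb1 had the largest, at 229, 248 and 278 CPM in control and 279, 308 and 296 CPM in cKO. Its lowest cKO library was just above its highest control library (log2 fold change 0.23, SE 0.11, adjusted p = 0.223, edgeR). The groups overlapped for the other 6, among them the structural subunits Psmb2, Psmb3 and Psmb4. Psmb3 had the widest spread within the control group among these, from 200 CPM in control 1 to 288 CPM in control 2. The shared direction depended in part on control 1. Over the 7 beta ring genes the median deviation from the control mean was -0.24, 0.10 and 0.15 in control 1, 2 and 3. It was 0.10, 0.08 and 0.21 in cKO 1, 2 and 3.

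For the catalytic subunits the groups overlapped. Psmb5, which carries the chymotrypsin-like site, had 146, 193 and 197 CPM in control and 175, 185 and 214 CPM in cKO. Psmb6, with the caspase-like site, had 327, 383 and 387 CPM in control and 367, 370 and 410 CPM in cKO. Psmb7, with the trypsin-like site, had 161, 207 and 215 CPM in control and 197, 205 and 224 CPM in cKO. In all 3 genes control 1 was the lowest library and the other control libraries lay within the cKO range. The log2 fold changes were 0.10 (95% interval -0.22 to 0.41), 0.06 (-0.19 to 0.32) and 0.10 (-0.19 to 0.40), with adjusted p-values of 0.712, 0.762 and 0.675 (edgeR). Without control 1, the log2 fold changes were -0.03, -0.01 and -0.02.

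The promoters of Psmb5 and Psmb6 are shown because Nfe2l1 and the related Nfe2l2 act through antioxidant response elements, whose core was searched as TGACNNNGC or TGAGNNNGC, and because both promoters hold the first form close to the start site. The stretches are from RefSeq on GRCm38.p6, read 5′ to 3′ on the strand of the gene, with the matching letters in capitals. They lie at chr14:54618006-54618075 (-), from 80 to 11 bases before the start of Psmb5, and at chr11:70525287-70525356 (+), from 70 to 1 bases before the start of Psmb6.
Psmb5: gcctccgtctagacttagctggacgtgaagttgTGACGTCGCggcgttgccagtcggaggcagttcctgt
Psmb6: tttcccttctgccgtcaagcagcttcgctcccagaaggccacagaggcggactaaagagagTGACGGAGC
In windows from 250 bases before to 50 bases after the start, searched on both strands, TGACNNNGC was found in 6 of 40 members with a window (15%) and in 14.0% of 27025 genes. TGAGNNNGC was found in 13 members (32.5%) and in 19.8% of genes. The motifs differ in a single letter, so that no site counts for both, and 17 members (42.5%) held either form beside 30.8% of genes. CCAAT, the box bound by NF-Y, was found in 15 members (37.5%) and 41.1% of genes. A match is a stretch of letters and not a measured site. No window was given for Psma8, Psmb1, Psmb2, Psmb7, Psmc3, Psmd3, Psmd7 and Psmg2.

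Psmb11 was close to the limit of detection in the sorted cells. The gene lies beside Psmb5 on chromosome 14 (chr14:54621433-54629556, +) and had 9, 45 and 16 counts in control and 18, 9 and 20 counts in cKO. These are 0.467, 2.31 and 0.621 CPM in control and 0.821, 0.468 and 0.923 CPM in cKO, with the highest value in control 2 and overlapping groups (log2 fold change -0.61, SE 0.79, adjusted p = 0.67, edgeR). Without control 2 the log2 fold change was 0.43. Other markers of thymic epithelium were also low. Their 12 genes summed to 42.0 to 44.5 CPM in control and 48.4 to 51.3 CPM in cKO, with no overlap. Most of the sum came from Ly75 and Epcam, whose groups overlapped. Krt5 and Cxcl12 were at 0 in all libraries, and Foxn1 was at 0 in all but cKO 2. Prss16, which was not tested, had 0 counts in each control library and 9, 15 and 10 counts in cKO 1, 2 and 3. Of 6 tested, 4 were higher in cKO and 1 (Tbata) was called, beside 4.47% of all tested genes called higher. The part of thymic epithelium in the counts of Psmb11 was not tested.

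The immunoproteasome subunits lie outside the member rule and show what the constitutive catalytic subunits are exchanged for. Psmb8 takes the place of Psmb5 and had 381, 587 and 556 CPM in control and 477, 498 and 497 CPM in cKO. Control 1 was below and the other control libraries above all cKO libraries (log2 fold change -0.05, SE 0.15, adjusted p = 0.874, edgeR). Psmb9 takes the place of Psmb6 and had 59.6, 92.2 and 87.6 CPM in control and 51.9, 59.5 and 64.7 CPM in cKO. It was lower in cKO with an overlap through control 1 (log2 fold change -0.44, SE 0.18, adjusted p = 0.134, edgeR). Without control 1 it passed the test (log2 fold change -0.62, adjusted p = 0.0121, edgeR). That was the only 1 of 13 alternatives in which it passed, and the adjusted p-values ran up to 0.370. The fit without control 1 also called more genes, with 1000 higher and 1030 lower beside 514 and 677 with all libraries. Psmb10 takes the place of Psmb7 and had 51.2, 57.5 and 56.4 CPM in control and 65.0, 59.6 and 64.2 CPM in cKO, without overlap but with an adjusted p of 0.354 (log2 fold change 0.19, SE 0.13, edgeR).

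Ratios within a library remove a shift that both genes share. The deposited FPKM, which are scaled to gene length, gave a ratio of Psmb9 over Psmb6 of 0.128, 0.164 and 0.168 in control and 0.104, 0.124 and 0.114 in cKO. The groups did not overlap (0.153 ± 0.0218 and 0.114 ± 0.0103, SD, n = 3, p = 0.1, two-sided exact permutation test, the smallest p that 3 against 3 allow). Psmb8 over Psmb5 was 2.13 ± 0.157 in control and 1.97 ± 0.177 in cKO (SD, n = 3, exact p = 0.4), so that Psmb8 was the more abundant mRNA of that pair in both genotypes. For Psmb10 over Psmb7 the ratio was 0.253 ± 0.0254 and 0.268 ± 0.0205 (SD, n = 3, exact p = 0.4). With 5 ratios tested, none can pass a threshold of 0.05 in this design.

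**Figure D3:**
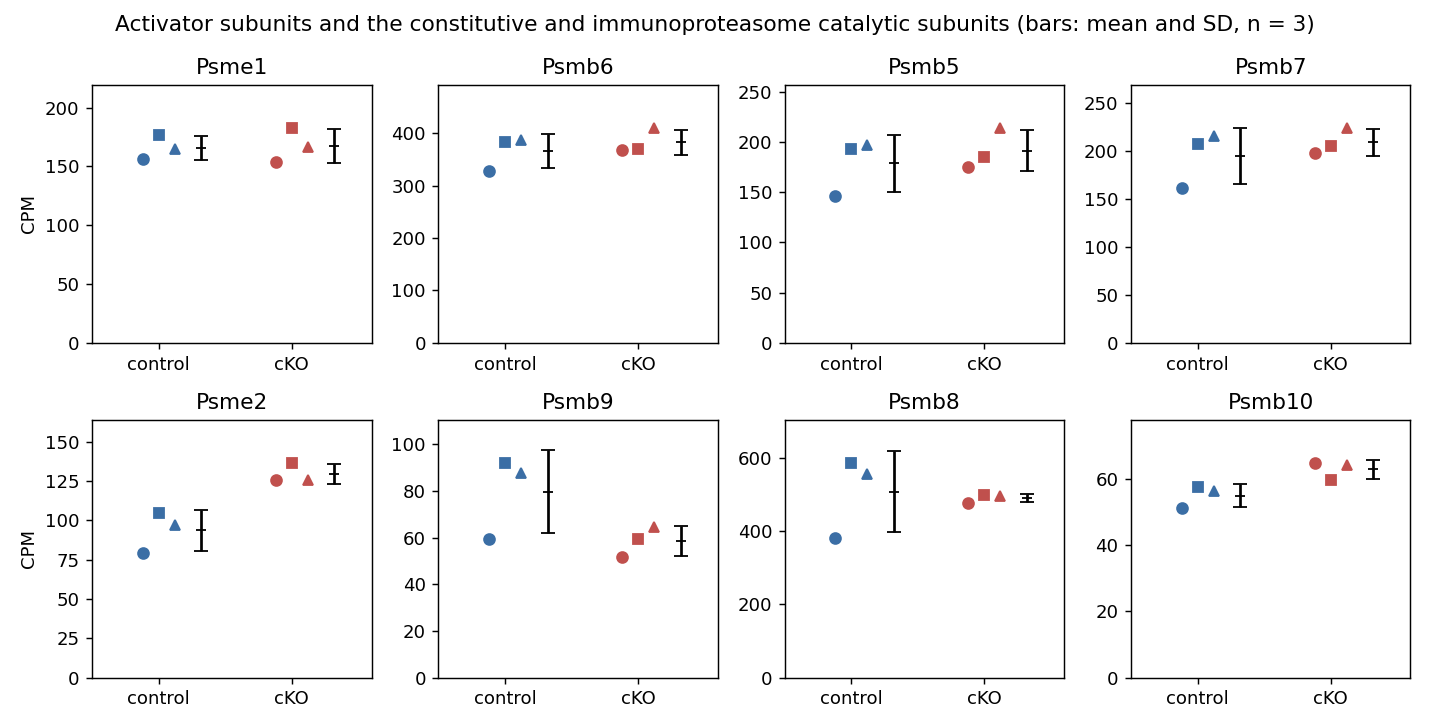
Level in CPM (y axis, from 0) of Psme1 and Psme2 and of the constitutive catalytic subunits above the immunoproteasome subunits that replace them, in control (blue) and cKO (red). Circles, squares and triangles stand for libraries 1, 2 and 3, and bars for mean and SD (n = 3). Psme2 is higher in all cKO libraries, at 126 to 137 CPM against 79.2 to 105 CPM, whereas Psme1 overlaps.

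The ATPases form the ring that pulls substrates into the barrel. Their 6 genes had a median log2 fold change of 0.17, and 5 were higher in cKO. Psmc1 had the largest difference of all constitutive subunits, with 204, 292 and 281 CPM in control and 313, 350 and 325 CPM in cKO. The groups did not overlap, and control 1 was far below the other control libraries (log2 fold change 0.34, SE 0.14, adjusted p = 0.151, edgeR). Without control 1 its log2 fold change was 0.20. Psmc5 and Psmc6 also had non-overlapping groups with a narrow spread. Psmc5 was at 193 to 204 CPM in control and 226 to 237 CPM in cKO, and Psmc6 was at 223 to 233 CPM in control and 245 to 271 CPM in cKO. Psmc3 had 296, 373 and 374 CPM in control and 340, 335 and 351 CPM in cKO, with all cKO libraries between the control libraries (log2 fold change -0.02, SE 0.12, adjusted p = 0.925, edgeR).

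The other base subunits are the scaffold proteins Psmd1 and Psmd2 and the ubiquitin receptor Psmd4. Psmd2 had 391, 441 and 450 CPM in control and 410, 477 and 507 CPM in cKO (log2 fold change 0.12, SE 0.12, adjusted p = 0.561, edgeR). Psmd4 had 240, 269 and 263 CPM in control and 237, 264 and 249 CPM in cKO (log2 fold change -0.04, SE 0.11, adjusted p = 0.845, edgeR). The groups overlapped for all 3 genes, Psmd1 included.

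Among the lid genes the directions were mixed, with 4 of 8 higher in cKO and a median log2 fold change of 0.01. The largest difference was that of Psmd7, which pairs with the deubiquitinase Psmd14. It had 124, 138 and 142 CPM in control and 163, 178 and 164 CPM in cKO, with every cKO library above every control library (log2 fold change 0.32, SE 0.11, 95% interval 0.08 to 0.57, adjusted p = 0.0901, edgeR), and DESeq2 gave an adjusted p of 0.0493. Psmd6 had 130, 138 and 145 CPM in control and 167, 160 and 184 CPM in cKO, also apart. Psmd14 itself had 166, 223 and 239 CPM in control and 216, 205 and 217 CPM in cKO, and its groups overlapped. Psmd8 had 285, 311 and 316 CPM in control and 269, 279 and 269 CPM in cKO, lower in all cKO libraries (log2 fold change -0.16, SE 0.10, adjusted p = 0.353, edgeR). The gap between the groups was wider for Psmd7 and Psmd6 than for Psmd8, whose interval of -0.39 to 0.07 covered 0. Psmd3, Psmd11, Psmd12 and Psmd13 had overlapping groups and log2 fold changes of -0.05 to 0.07.

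Assembly chaperones build the particle and leave it when it is complete. Psmg1 to Psmg4 assemble the alpha ring, and Psmd5, Psmd9 and Psmd10 assemble the base. All 7 were higher in cKO on average, with a median log2 fold change of 0.19, but for none did the groups separate. Their median deviation from the control mean was -0.13, 0.03 and 0.14 in control 1, 2 and 3. It was 0.10, 0.21 and 0.26 in cKO 1, 2 and 3. The direction depended in part on control 1. Psmd10 had 36.7, 63.2 and 60.3 CPM in control and 56.7, 53.8 and 62.2 CPM in cKO, with control 2 above all cKO libraries. Psmg1 had 33.8, 45.5 and 47.9 CPM in control and 44.6, 52.1 and 59.7 CPM in cKO (log2 fold change 0.30, SE 0.18, adjusted p = 0.307, edgeR). Psmd9 had 86.1, 79.8 and 94.4 CPM in control and 76.8, 83.5 and 105 CPM in cKO (log2 fold change 0.03, SE 0.15, adjusted p = 0.925, edgeR). The overlap was small for Psmg2, at 35.3 to 41.6 CPM in control and 40.6 to 47.7 CPM in cKO. It was complete for Psmg3, at 22.1 to 26.1 CPM in control and 24.3 to 26.0 CPM in cKO.

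The activators bind the core particle in place of the regulatory particle. Psme1 and Psme2 (PA28 alpha and beta) form a mixed ring, are encoded close together on chromosome 14 and are induced by interferon gamma. Psme2, on chr14:55587441-55591113 (-), had 79.2, 105 and 97.0 CPM in control and 126, 137 and 126 CPM in cKO. Every cKO library was above every control library, a 1.38-fold higher level (log2 fold change 0.47, SE 0.13, 95% interval 0.17 to 0.76, adjusted p = 0.0501, edgeR). This was the member closest to the threshold, and it passed under 8 of 13 alternatives, with adjusted p-values from 0.0132 to 0.146. Psme1, on chr14:55578123-55581529 (+), had 157, 176 and 164 CPM in control and 154, 183 and 166 CPM in cKO, with the cKO range covering the control range (log2 fold change 0.01, SE 0.12, 95% interval -0.24 to 0.27, adjusted p = 0.954, edgeR). The FPKM ratio of Psme2 over Psme1 was 0.642, 0.758 and 0.753 in control and 1.02, 0.944 and 0.969 in cKO. It was higher in all cKO libraries (0.718 ± 0.0654 and 0.977 ± 0.0377, SD, n = 3, p = 0.1, two-sided exact permutation test, the smallest p possible), with a difference of 0.45 on the log2 scale.

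Interferon response genes were listed beside these activators, since Psme1 and Psme2 belong to the interferon-induced genes. Of 15 genes, 11 were higher in cKO and the median log2 fold change was 0.57. By edgeR, 3 (Irf1, Gbp3 and Bst2) were called higher and 0 lower, beside 4.47% and 5.89% of all tested genes. At an unadjusted p below 0.05, 7 were higher and 1 was lower (53.3% in all, beside 27.9% of all tested genes). The summed level of the 15 genes was 1031 to 1200 CPM in control and 1293 to 1448 CPM in cKO. Without Irf1 it was 885 to 1076 CPM and 883 to 1052 CPM, and the groups overlapped. Psme1, Psmb8, Psmb9 and Psmb10, also interferon-induced, had log2 fold changes of 0.01, -0.05, -0.44 and 0.19, none of which passed the test. The part of interferon in the level of Psme2 was not tested.

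Psme2b is a copy of Psme2 in a single exon on chromosome 11 (chr11:48945354-48946190, -). It had 14, 13 and 20 counts in control and 40, 53 and 64 counts in cKO, or 0.726, 0.668 and 0.776 CPM and 1.82, 2.76 and 2.95 CPM. All cKO libraries were above all control libraries (log2 fold change 1.79, SE 0.56, 95% interval 0.54 to 3.03, adjusted p = 0.0682, edgeR), and the adjusted p was 0.0274 with DESeq2. The coding sequences of both genes have 720 bases, of which 715 are identical (99.3%), with the longest identical run at 311 bases. Psme1 has 61.4% identity with Psme2. A stretch of 90 bases (coding positions 454 to 543) that holds 3 of the 5 differing bases is shown, with capitals for the bases that differ. Within the coding sequence, only reads over such positions tell the genes apart. The untranslated sequence was not compared.
Psme2: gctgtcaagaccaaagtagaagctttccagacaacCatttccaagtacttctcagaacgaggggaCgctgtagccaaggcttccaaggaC
Psme2b: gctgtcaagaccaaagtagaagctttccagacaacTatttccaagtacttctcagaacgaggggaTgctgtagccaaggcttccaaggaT
Of all windows of 50 coding bases, 69.6% are the same in both genes, and the level of Psme2b is therefore uncertain. Its share of the counts of both genes was 0.633% to 0.908% in control and 1.43% to 2.30% in cKO. Psme2b lies wholly within the span of Gm12185 on the same strand (chr11:48904656-48992226, -), and 41 of its 837 bases overlap 9930111J21Rik1, also on that strand (chr11:48946150-48979398, -). The latter gene, chosen after its values were seen, had 0.778, 1.70 and 0.233 CPM in control and 2.69, 6.30 and 4.38 CPM in cKO (log2 fold change 2.31, SE 0.69, adjusted p = 0.0583, edgeR). The part of reads from these overlapping genes or from Psme2 in the value of Psme2b was not tested. Over the gene table, 20 of the 48 members overlap another annotated gene.

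For the other activators and the inhibitor the control and cKO libraries overlapped. Psme3, a nuclear activator, had 240, 295 and 292 CPM in control and 304, 293 and 307 CPM in cKO (log2 fold change 0.13, 95% interval -0.13 to 0.39, adjusted p = 0.509, edgeR). Psme4 (PA200), which acts in the nucleus and in spermatogenesis, had 22.2, 34.8 and 32.2 CPM in control and 27.0, 36.3 and 26.0 CPM in cKO (95% interval -0.47 to 0.47, adjusted p = 0.997, edgeR). Psmf1, an inhibitor of the core particle, had 107, 84.5 and 98.2 CPM in control and 114, 73.2 and 100 CPM in cKO (95% interval -0.39 to 0.36, adjusted p = 0.978, edgeR). For each of the 3 genes a difference inside its interval was not resolved.

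The symbol rule also took in 2 genes that are no subunits. Psmc3ip encodes Hop2, a factor of meiotic recombination named for its binding to Psmc3. It had 21.8, 28.0 and 28.8 CPM in control and 33.5, 42.0 and 45.7 CPM in cKO, with no overlap (log2 fold change 0.62, SE 0.18, 95% interval 0.23 to 1.02, adjusted p = 0.0526, edgeR), and it passed under 6 of 13 alternatives. Psme3ip1, which binds Psme3, had 85.0, 103 and 98.2 CPM in control and 86.9, 94.4 and 89.3 CPM in cKO, with overlapping groups. Of the 4 members that DESeq2 called (Psmc3ip, Psmd7, Psme2 and Psme2b), only Psmd7 is a constitutive subunit.

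Levels of different subunits were compared per length, by mean FPKM over the 3 control libraries. Psmb6 was the highest at 455 ± 34.9 FPKM (SD, n = 3), followed by Psma6 at 397 ± 28.6, Psmb3 at 328 ± 56.4, Psmb2 at 324 ± 39.7 and Psma3 at 303 ± 11.8. Neighbours among these 5 differed by less than the sum of their SDs. At the other end were Psmd7 at 84.4 ± 4.71 and Psmd1 at 74.0 ± 13.1. The levels thus spanned 6.15-fold across 31 subunits, with a median of 150 FPKM and 27 subunits above 100 FPKM. Assembly chaperones were lower, at 24.9 to 50.7 FPKM, and Psme4, Psme2b, Psmb11 and Psma8 were at 5.44, 0.860, 0.263 and 0.237 FPKM. Across control libraries the coefficient of variation of the subunits in CPM ranged from 2.40% to 19.3%, with a median of 9.77%.

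**Figure D4:**
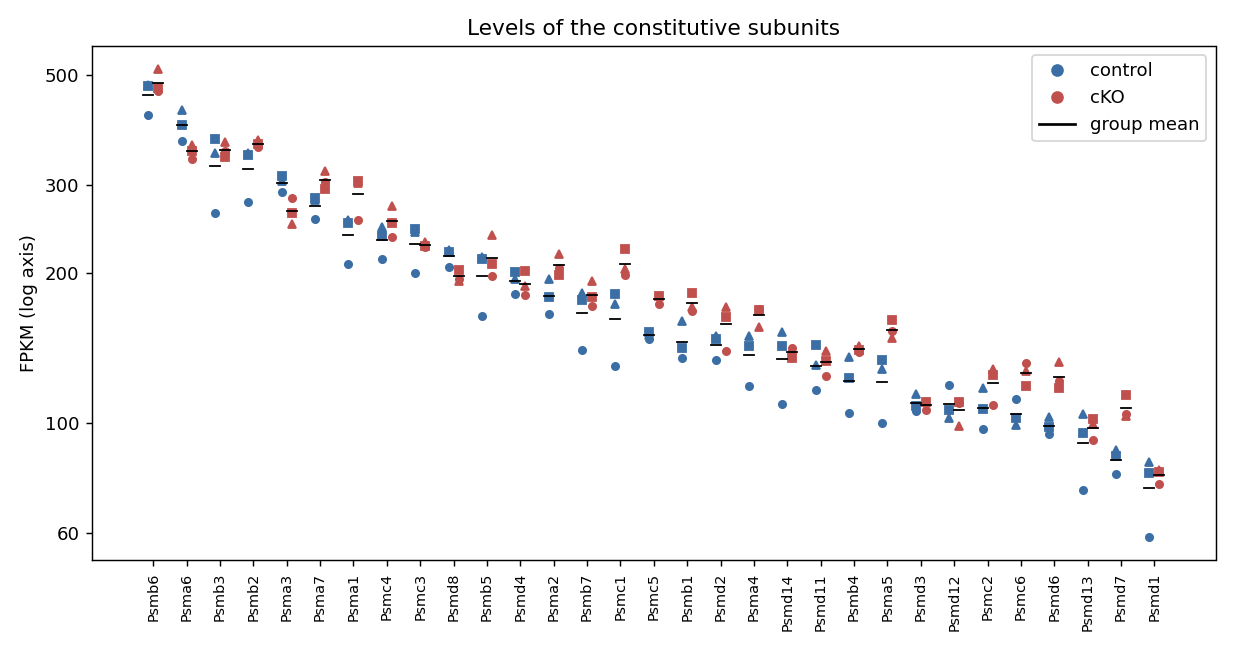
Level of each of the 31 constitutive subunits (y axis, FPKM on a log scale), ordered by the control mean (x axis), with blue symbols for control, red symbols for cKO, circles, squares and triangles for libraries 1, 2 and 3, and black lines for group means. The means in control run from 455 FPKM for Psmb6 to 74.0 FPKM for Psmd1, and the circle of control 1 is the lowest blue symbol for most genes.

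Proteins that act on or with the particle but fall outside the symbol rule were described by a list of 10, all tested. Of these, 8 were higher in cKO with a median log2 fold change of 0.18. By edgeR, 2 were called higher and 0 lower, beside 4.47% and 5.89% of all tested genes. Usp14, a deubiquitinase bound to the base, had 47.2, 63.9 and 60.2 CPM in control and 85.4, 79.2 and 81.2 CPM in cKO. It rose without overlap (log2 fold change 0.52, SE 0.14, adjusted p = 0.0451, edgeR) and passed under 7 of 13 alternatives, with adjusted p-values from 0.0104 to 0.146 (the highest without cKO 3). Txnl1, a thioredoxin-like protein of the regulatory particle that was chosen after its values were seen, rose from 83.2 to 89.5 CPM in control to 113 to 125 CPM in cKO (log2 fold change 0.43, SE 0.11, adjusted p = 0.0384, edgeR). The ubiquitin receptor Adrm1 had 164, 149 and 164 CPM in control and 168, 180 and 212 CPM in cKO (log2 fold change 0.23, adjusted p = 0.258, edgeR). The deubiquitinase Uchl5, the core maturation factor Pomp and the lid subunit Sem1 had log2 fold changes of 0.18, 0.18 and -0.08, with adjusted p-values of 0.368, 0.379 and 0.743 (edgeR).

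Regulators of proteasome genes gave calls in both directions. Nfe2l1 is made at the endoplasmic reticulum, deglycosylated by Ngly1 and cut by the protease Ddi2 before it enters the nucleus. Nfe2l1 mRNA had 51.2, 34.1 and 35.0 CPM in control and 38.3, 36.8 and 41.5 CPM in cKO, and the groups overlapped (log2 fold change -0.04, SE 0.18, adjusted p = 0.908, edgeR). Nfe2l2 had 35.1, 55.8 and 35.9 CPM in control and 44.9, 28.7 and 45.1 CPM in cKO (log2 fold change -0.09, SE 0.23, adjusted p = 0.84, edgeR). Ddi2 rose, with 61.9, 58.1 and 55.9 CPM in control and 89.7, 71.7 and 107 CPM in cKO (log2 fold change 0.61, SE 0.16, adjusted p = 0.0365, edgeR). Ngly1 fell, with 96.8, 118 and 112 CPM in control and 78.1, 77.1 and 76.2 CPM in cKO (log2 fold change -0.50, SE 0.12, adjusted p = 0.0305, edgeR). The libraries of Ddi2 and of Ngly1 did not overlap. Over the 13 alternatives Ddi2 passed in 9 and Ngly1 in 8, and without cKO 3 the adjusted p-values were 0.164 and 0.128 (edgeR). Over the list of 7, which also holds Mafg, Maff and Mafk, 3 were higher and 4 lower in cKO. In each direction 1 was called, beside 4.47% of all tested genes called higher and 5.89% lower.

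Genes for ubiquitin, its activating enzymes and the delivery of substrates went in both directions, with log2 fold changes from -0.32 to 0.86. Of 16 genes, 10 were higher in cKO at a median log2 fold change of 0.04, while 1 was called higher and 0 lower by edgeR, with 5 higher and 1 lower at an unadjusted p below 0.05 (37.5% in all, beside 27.9% of all tested genes). In 43.8% of the list the libraries of both genotypes were apart, beside 33.0% of all tested genes. The gene called was Uba6, an alternative ubiquitin-activating enzyme chosen after its values were seen, with 40.3, 37.0 and 36.7 CPM in control and 57.5, 50.2 and 61.9 CPM in cKO (log2 fold change 0.57, SE 0.14, adjusted p = 0.0314, edgeR).

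The constitutive subunits were set beside other large assemblies of the cytosol in the same libraries. All 8 subunits of TRiC, a ring chaperonin, were higher in cKO, with log2 fold changes of 0.23 to 0.57, a median of 0.37 and 3 called. All 77 tested cytosolic ribosomal protein genes were higher, with log2 fold changes of 0.13 to 0.97, a median of 0.40 and 17 called. The proteasome subunits ranged from -0.25 to 0.34 with a median of 0.10 and 0 called. Over all tested genes, 4.47% were called higher and 5.89% lower in cKO. Control 1 was low in all of these assemblies, with median deviations from the control mean of -0.18 for TRiC and -0.22 for the ribosomal genes, and without it the medians were 0.29 for TRiC, 0.30 for the ribosomal genes and 0.03 for the proteasome. The calls of TRiC and of the ribosomal genes dropped to 0 without control 2, without cKO 1 or without cKO 3, while the medians in these fits were 0.31 to 0.40 for TRiC and 0.37 to 0.42 for the ribosomal genes and every gene stayed higher in cKO. The calls higher in cKO over all genes were 178, 179 and 42 in the same fits. Every TRiC library of cKO was above every control library in sum, at 3441 to 3756 CPM and 2388 to 2985 CPM, whereas the sums of the proteasome subunits overlapped. The difference between the assemblies was not tested, since the genes share their libraries.

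**Figure D5:**
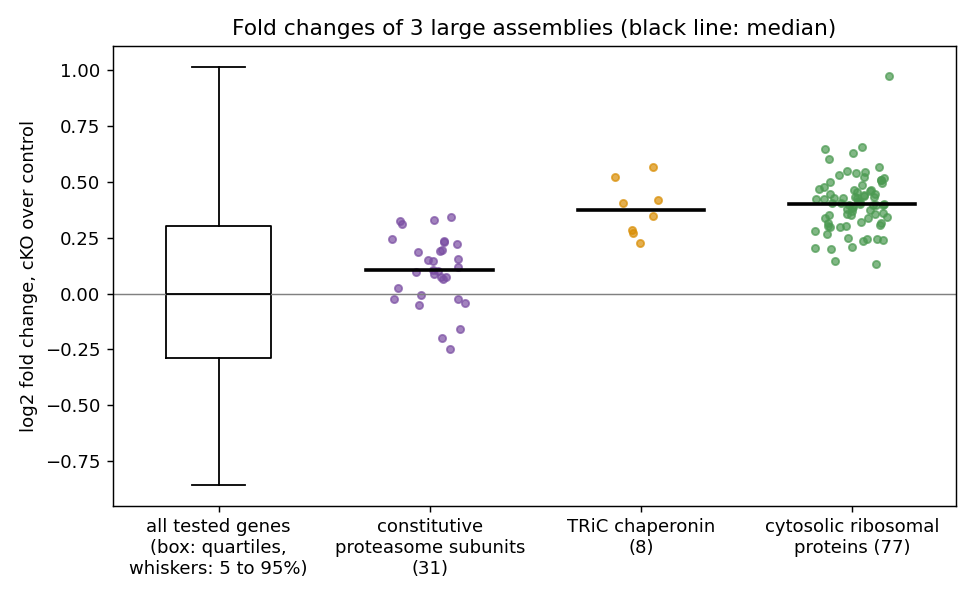
Log2 fold change of cKO over control (y axis) for all tested genes as a box of quartiles with whiskers at 5% and 95%, and for the constitutive proteasome subunits, TRiC and the cytosolic ribosomal proteins as 1 point per gene with a black line at the median. The proteasome median is 0.10, with points on both sides of 0, while every point of TRiC and the ribosomal proteins lies above 0.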

How the data were processed

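The authors extracted RNA from sorted DP thymocytes and sequenced 3 control and 3 cKO libraries on an Illumina HiSeq2500. The library kit differs between the paper (Discover-sc WTA Kit V2) and the labels (SMARTER). The submitters' processing notes list fastp 0.18.0, Bowtie2 2.2.8, HISAT2, StringTie and RSEM, with no role or order. No genome build or annotation is given in the sources used here. The deposited table of 22322 genes holds raw read counts per library, FPKM that the authors scaled to gene length and library size, their mean FPKM per group, and their own log2 ratios, p-values and FDR. The authors' means, log2 ratios and p-values were not used.

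Groups and replicate numbers come from the labels. The test was edgeR 4.0.16 in R 4.3.3 (TMM, filterByExpr at min.count 10 and min.total.count 15, quasi-likelihood test, genotype as the only term, Benjamini-Hochberg adjustment), and a gene was called at an adjusted p below 0.05. CPM are counts per library size after TMM, with factors of 0.981 to 1.01. No library was a duplicate, since the chi-square per degree of freedom within a group was 19.8 to 68.3. FPKM ratios were compared with exact permutation tests in scipy 1.17.1. Alternatives were DESeq2 1.42.0, limma-voom (limma 3.58.1), RLE factors, library totals in place of TMM, all genes with a count, genes with a mean of at least 5 CPM, the replicate number as a block, and leaving out each library. The scripts were tested on simulated data. Gene positions are from GENCODE release M21 (GRCm38), matched by Ensembl identifier for 22267 genes and all 48 members. Promoters are RefSeq windows.

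Members and lists were chosen with earlier results of these data known. Statistics are given for the catalytic subunits, Psmb8 to Psmb11, the activators and Psmf1, Psmc3ip, members called (at most 20), the largest and smallest log2 fold change in each role, Nfe2l1, Nfe2l2, Ngly1, Ddi2, Pomp, Adrm1, Sem1, Usp14, Uchl5 and Paxbp1; other genes were chosen after their values were seen.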

Additional observations from a re-analysis of the deposited data

How the results depend on the processing

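The count of members called higher in cKO was 0 and became 4 with DESeq2, 1 with limma-voom and 2 each with RLE factors, with library totals in place of TMM, with unfiltered genes, with genes of at least 5 CPM and with the replicate block. It was 0 to 1 when a library was left out (1, Psme2, without control 1), and 0 members were called lower in any of these. The 2 called with the block were Psmc3ip and Psme2. The same numbers of both genotypes did not deviate together (r across genes of 0.05, 0.04 and -0.03 for 1, 2 and 3). The paper's controls were littermates, but no label pairs the libraries. With 3 libraries a group, these values cannot decide whether the same numbers share a litter or a day. Over all genes, 514 called higher became 953 with DESeq2 and 42 to 1000 when a library was left out, and 677 called lower became 78 to 1030. Both counts were highest without control 1 and lowest without cKO 3. The median of the members stayed above 0, from 0.03 without control 1 to 0.17 without control 3. Paxbp1 had a log2 fold change of 0.92 (adjusted p = 0.0977, edgeR) and of 1.501 (adjusted p = 0.0017) without control 1.

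Genes near 0 changed sign. Psme4 was at 0.010 with DESeq2, 0.0099 with RLE factors, 0.022 with library totals, 0.014 with genes of at least 5 CPM and 0.0080 with the block. Psmf1 was at 0.00027 with DESeq2, 0.00033 with RLE factors, 0.0070 with library totals and 0.0057 with genes of at least 5 CPM. When a library was left out, the log2 fold change ran from -0.15 to 0.17 for Nfe2l1, -0.21 to 0.15 for Nfe2l2, -0.98 to 0.43 for Psmb11, -0.032 to 0.17 for Psmb5, -0.012 to 0.11 for Psmb6, -0.021 to 0.18 for Psmb7, -0.22 to 0.065 for Psmb8, -0.13 to 0.029 for Psmc3, -0.12 to 0.12 for Psmd9, -0.054 to 0.073 for Psme1, -0.18 to 0.12 for Psme4 and -0.15 to 0.15 for Psmf1. Of the genes called, Usp14 was lost with the block (adjusted p = 0.0574, edgeR) and in each fit without a library except control 1, Ngly1 likewise in each except control 1, and Ddi2 in each except control 1 and cKO 2. In the fits that lost them the log2 fold changes were 0.49 to 0.61 for Usp14, -0.51 to -0.44 for Ngly1 and 0.46 to 0.61 for Ddi2. The cause of these shifts was not tested. With 3 libraries a group and a median standard error of 0.12, the 95% intervals of the 31 subunits ran from -0.49 to 0.66 on the log2 scale, and 5 of them excluded 0.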
